A study of Rattus norvegicus with 12 samples.

Results

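The rat mitochondrial genome was represented by all 37 rows that the deposited count table lists on chromosome M, among 32623 rows in all. They are 13 protein-coding genes, 2 rRNA rows and 22 tRNA rows. The tRNA and rRNA rows carry only clone-based names (AY172581 followed by a number) and are called by those names here. Kidney cortex was taken from male 6-week-old rats of the strain SS-Xdhem1Mcwi, which carries an engineered mutation of Xdh, the gene of xanthine dehydrogenase, the enzyme that forms uric acid. The groups were wild-type rats (WT), heterozygotes with 1 mutated allele (HET) and homozygotes with both alleles mutated (HOMO), littermates with 4 libraries each and no treatment stated. The labels give the same strain name for all 3 groups, so no rats of another strain served as controls, and they give no clone, founder or pooling of animals. Whether every library is a separate animal is not stated, so p-values measure the spread between these libraries, which may be technical.

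The mitochondrial genome is a small circle that encodes core subunits of respiratory complexes I, III and IV and of ATP synthase (complex V), while the other subunits, including all of complex II, are encoded in the nucleus. Both of its strands are transcribed into long precursors, from which the tRNAs that lie between most genes are excised, and this releases the mRNAs and rRNAs. Most mitochondrial mRNAs in mammals receive short poly(A) tails, whereas the tRNAs receive a different end and the rRNAs only very short tails. The proximal tubule, which makes up most of the kidney cortex, is among the cell types richest in mitochondria. Library preparation used a stranded kit that captures poly(A) tails, so counts on tRNA and rRNA rows measure the captured fraction and not the abundance of those RNAs.

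Totals ran from 18995464 to 37023629 counts per library, and between 5 and 8 of the 10 most abundant genes of a library were mitochondrial. Xdh was at 281, 379.6, 212 and 270.0 CPM (counts scaled to library size with TMM composition factors) in WT replicates 1 to 4, and at 182, 197, 140.3 and 158 CPM in HET replicates 1, 2, 4 and 5. In HOMO replicates 1 to 4 it was 61.7, 60.7, 229.6 and 57.6 CPM. The library labelled HOMO replicate 3 therefore lay in the WT range for Xdh, unlike the other HOMO libraries, and values without it are given for the main results and the counts of the gene lists. Its mitochondrial share (6.35%) and its summed markers of proximal tubule (2880 CPM) and macrophages (2479 CPM) lay among the other HOMO libraries. They lay outside the WT ranges given below. Its sums for every other marker list lay outside the range of the other HOMO libraries, and all but red blood cells lay nearer to WT. Collecting duct markers were at 700.0 CPM (others 296 to 420.5) and fibroblast markers at 3496 CPM (5118 to 6864). Red blood cell markers were at 31.6 CPM (123 to 431). The label gives a genotype and not a transcript level, and the reason for its Xdh level was not tested. Of the 37 mitochondrial rows, 34 passed the filter on low counts: the 13 protein-coding genes, both rRNA rows and 19 of 22 tRNA rows.

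Mitochondrial transcripts took a smaller part of the HOMO libraries than of the others. The 37 rows held 14.4, 17.0, 14.6 and 14.7% of all counts in the WT libraries, 15.5, 16.4, 12.9 and 18.6% in the HET libraries and 6.75, 5.97, 6.35 and 6.66% in the HOMO libraries. Every HOMO library lay below every WT and HET library, while WT and HET overlapped. Mean shares (± SD, n = 4) were 15.2 ± 1.23% for WT, 15.8 ± 2.37% for HET and 6.43 ± 0.353% for HOMO, so that the HOMO share was 0.424 times the WT share. The exact two-sided permutation p for HOMO against WT was 0.0286, the smallest that 4 libraries against 4 allow, and it was 0.0657 after adjustment over the 69 single-value tests made. None of the 69 tests passed that adjustment, and differences of shares and ratios are therefore given as differences between groups that do or do not overlap. Without the library labelled HOMO replicate 3 the difference in means was -8.72 percentage points, against -8.75 with it.

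**Figure D1:**
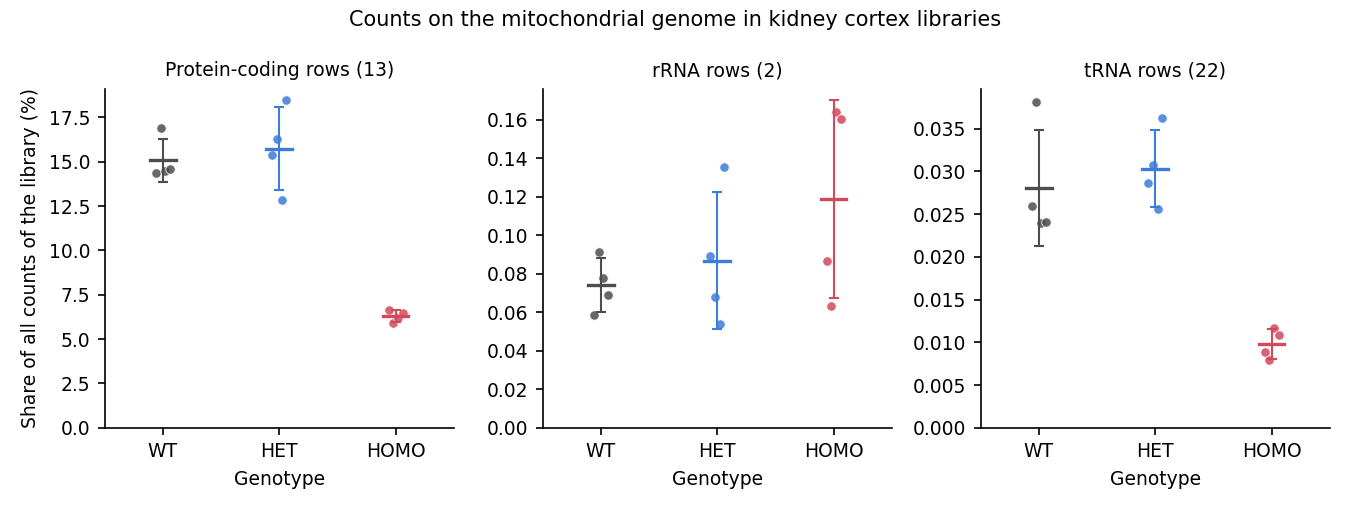
Share of all counts of a library (%, vertical axes from 0) on the 13 protein-coding, 2 rRNA and 22 tRNA rows of the mitochondrial genome, by genotype. Points are libraries, horizontal lines are means and bars are SDs (n = 4); the protein-coding share was 5.90 to 6.65% in HOMO and 14.3 to 16.9% in WT, while the rRNA share overlapped between all groups.

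The 3 classes differed in this. The protein-coding rows held nearly all mitochondrial counts, with means of 15.1 ± 1.22% of the library in WT, 15.7 ± 2.34% in HET and 6.30 ± 0.336% in HOMO. The tRNA rows went the same way, from 0.0280 ± 0.00678% in WT to 0.00983 ± 0.00173% in HOMO with no overlap (exact p = 0.0286, adjusted 0.0657). The rRNA rows held 0.0586, 0.0916, 0.0780 and 0.0690% in the WT libraries, 0.0892, 0.0681, 0.0540 and 0.136% in the HET libraries and 0.0867, 0.0635, 0.164 and 0.161% in the HOMO libraries. HOMO replicates 3 and 4 were the highest of all 12 libraries, HOMO replicates 1 and 2 lay within the WT range, and the groups overlapped (exact p = 0.229 for HOMO against WT).

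All 13 protein-coding genes fell in HOMO against WT, with log2 fold changes of -1.57 (Mt-co2) to -2.14 (Mt-nd4l) with a median of -1.88, and for each the 4 HOMO libraries lay below the 4 WT libraries (edgeR quasi-likelihood test, largest adjusted p = 1.31e-04). Most genes changed in this comparison: of 15856 genes tested, 71.7% were called at an adjusted p under 0.05, 34.7% lower and 37.0% higher, and for 66.4% the groups did not overlap. The median of all genes tested was 0.038 on the TMM scale. It was 0.65 with library size alone, where 80.0% of called genes were higher against 51.6% on the TMM scale. The 13 genes fell under that scaling too, with a median of -1.26 and values from -0.95 to -1.52. In these bulk samples, fewer cells of a type and less RNA per cell cannot be told apart.

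**Figure D2:**
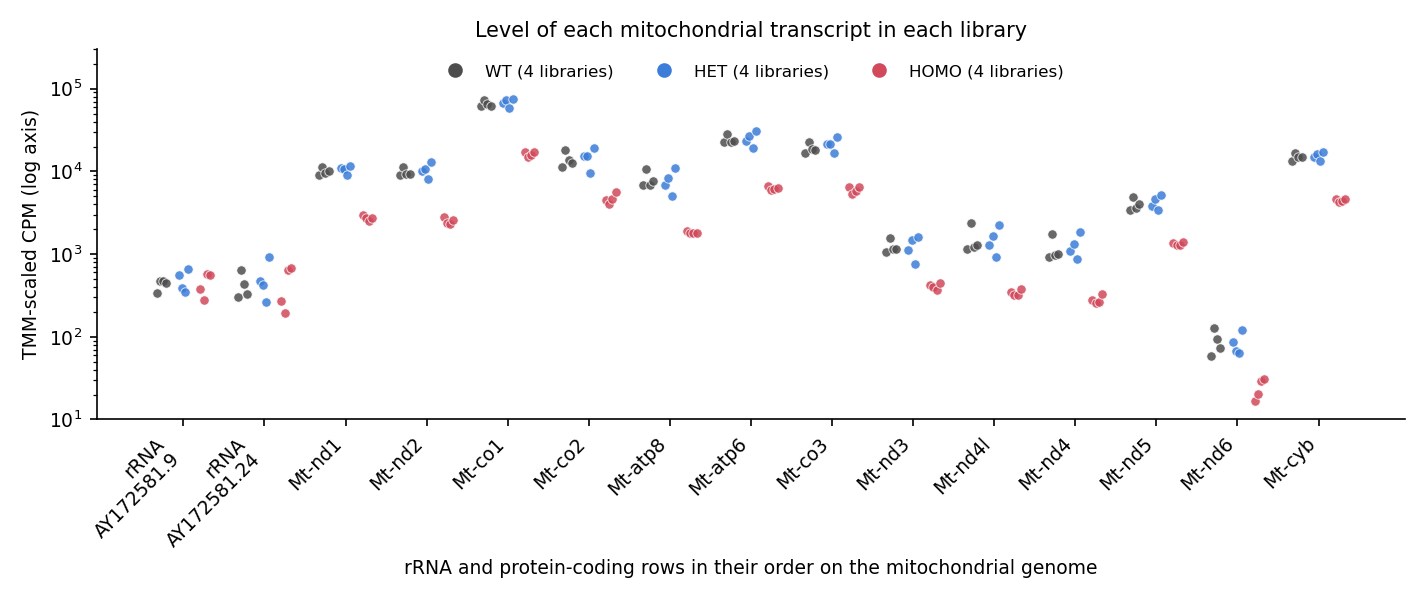
TMM-scaled CPM (log axis) of the 2 rRNA rows and the 13 protein-coding genes in each of the 12 libraries, in their order on the mitochondrial genome. Each point is a library; the HOMO points lie below all WT and HET points for each of the 13 protein-coding genes and overlap with them for both rRNA rows.

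Complex IV, cytochrome c oxidase, passes electrons from cytochrome c to oxygen, and its 3 mitochondrial subunits form its core. Positions are those of chromosome M in the deposited table. Mt-co1 (positions 5323 to 6867), which holds the site where oxygen is reduced, stood at 61990.1, 72825, 64615 and 62064 CPM in the WT libraries, 67259, 74020.2, 59154 and 75383 CPM in the HET libraries and 17249, 14868, 15884 and 17400.1 CPM in the HOMO libraries. All HOMO libraries lay below all others, and the HOMO mean was 25.0% of the WT mean (log2 fold change -1.999 ± 0.12, edgeR adjusted p = 1.18e-08). Mt-co2 (positions 7006 to 7689), which takes up electrons from cytochrome c, stood at 11212, 18256, 13747 and 12608 CPM in the WT libraries, 15163, 15291, 9622 and 19354 CPM in the HET libraries and 4562, 4023, 4599 and 5659.6 CPM in the HOMO libraries. The HOMO libraries were all lower, with HOMO replicate 4 the highest among them, and its log2 fold change of -1.57 ± 0.21 (adjusted p = 1.75e-05, edgeR) was the smallest of the 13 in size. Mt-co3 (positions 8599 to 9382), the other core subunit, stood at 16841, 22958, 18532 and 18211 CPM in the WT libraries, 21255, 21219, 16469 and 25919 CPM in the HET libraries and 6478, 5371, 5813 and 6550.1 CPM in the HOMO libraries. Its HOMO mean was 31.6% of the WT mean (log2 fold change -1.66 ± 0.15, edgeR adjusted p = 4.53e-07).

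Complex I, which oxidises NADH, has 7 mitochondrial subunits, all in its membrane arm, where protons are pumped. Mt-nd1 (positions 2740 to 3694), a subunit at the site where the quinone binds, stood at 9060.5, 11391, 9522 and 10069 CPM in the WT libraries, 10959.9, 10583, 9106 and 11607 CPM in the HET libraries and 2936, 2721, 2481 and 2753 CPM in the HOMO libraries. The HOMO libraries stood apart at 27.2% of the WT mean (log2 fold change -1.88 ± 0.11, edgeR adjusted p = 1.07e-08). Mt-nd2 (positions 3904 to 4942), a proton-pumping subunit, stood at 9034, 11385, 9179 and 9418 CPM in the WT libraries, 10074, 10806, 8056 and 13010.4 CPM in the HET libraries and 2815, 2399, 2287 and 2583 CPM in the HOMO libraries. WT replicate 2 and HET replicate 5 were the highest of their groups, and the log2 fold change in HOMO was -1.95 ± 0.15 (edgeR adjusted p = 8.52e-08). Mt-nd5 (positions 11736 to 13565), the largest subunit by listed gene length and also a proton pump, stood at 3449, 4854, 3648 and 3990.3 CPM in the WT libraries, 3847, 4640.1, 3396 and 5191 CPM in the HET libraries and 1365, 1287, 1299 and 1395 CPM in the HOMO libraries. It fell as well, at -1.58 ± 0.14 (edgeR adjusted p = 4.87e-07).

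The other 4 complex I genes fell as well. Mt-nd4l (positions 9870 to 10166), a small subunit whose reading frame overlaps that of Mt-nd4 by 7 bases, stood at 1164, 2361, 1231 and 1276 CPM in the WT libraries, 1283, 1641, 927 and 2267 CPM in the HET libraries and 350.1, 319.9, 319 and 378 CPM in the HOMO libraries. WT replicate 2 was far above the other WT libraries, and the log2 fold change of -2.14 ± 0.28 was the largest fall of the 13 (edgeR adjusted p = 2.28e-05). Without WT replicate 2 it was -1.85. Mt-nd4 (positions 10160 to 11537), a proton-pumping subunit, stood at 932, 1737, 972 and 995 CPM in the WT libraries, 1089, 1310.2, 878 and 1843 CPM in the HET libraries and 278, 255, 262 and 329.9 CPM in the HOMO libraries. WT replicate 2 and HET replicate 5 were again the highest, and the log2 fold change was -2.04 ± 0.25 (edgeR adjusted p = 1.05e-05).

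Mt-nd3 (positions 9451 to 9798), a small membrane subunit near the junction of the arms of the complex, stood at 1053, 1572, 1148 and 1152 CPM in the WT libraries, 1135, 1476, 755 and 1609 CPM in the HET libraries and 423, 396, 366 and 451 CPM in the HOMO libraries. The HOMO mean was 33.2% of the WT mean (log2 fold change -1.59 ± 0.21, edgeR adjusted p = 1.62e-05). Mt-nd6 (positions 13543 to 14061), in mammals the one mRNA transcribed from the strand opposite to that of the other mitochondrial mRNAs, stood at 59.0, 129, 94.0 and 72.8 CPM in the WT libraries, 86.7, 68.0, 64.2 and 122 CPM in the HET libraries and 16.9, 20.2, 29.2 and 30.6 CPM in the HOMO libraries. Mt-nd6 had the lowest captured level per kb of the 13, with 801 to 3055 raw counts per library, and it fell, at -1.87 ± 0.29 on the log2 scale (edgeR adjusted p = 1.31e-04). How fully its mRNA was captured by poly(A) was not measured, so that rank is not one of abundance. Its listed interval shares 23 bases with Mt-nd5, and whether the authors counted by strand is not given in the sources used here, so reads of the shared bases cannot be assigned.

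Complex III has 1 mitochondrial subunit, cytochrome b, and complex V has 2. Mt-cyb (positions 14136 to 15278), cytochrome b, the electron-carrying core of the complex, stood at 13407, 16757, 14728 and 14855 CPM in the WT libraries, 14749, 16347, 13480.2 and 16935 CPM in the HET libraries and 4673, 4276, 4444 and 4666 CPM in the HOMO libraries. HOMO was at 30.2% of WT, with the smallest standard error of the 13 (log2 fold change -1.73 ± 0.11, edgeR adjusted p = 1.68e-08). Mt-atp6 (positions 7919 to 8599), the subunit that forms the proton path beside the rotating ring, stood at 22784, 28608, 22609.7 and 23507 CPM in the WT libraries, 23517, 26658, 19278 and 30575 CPM in the HET libraries and 6678, 5995, 6159 and 6237 CPM in the HOMO libraries. The log2 fold change was -1.96 ± 0.14 (edgeR adjusted p = 7.12e-08). Mt-atp8 (positions 7758 to 7961), a short membrane subunit that shares 43 bases with Mt-atp6, stood at 6856, 10696, 6932 and 7559 CPM in the WT libraries, 6805, 8435, 5086 and 11055 CPM in the HET libraries and 1892, 1816, 1802 and 1795 CPM in the HOMO libraries. The 4 HOMO libraries lay within 1795 to 1892 CPM, whereas WT and HET spread more widely, and the log2 fold change was -2.13 ± 0.22 (edgeR adjusted p = 1.38e-06). How reads in the shared bases were divided is not given in the sources used here, and reads from nuclear copies of mitochondrial DNA, if counted, could have been split between loci.

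Per listed kilobase, which takes out gene length but not the uneven coverage of an mRNA that poly(A) capture or short and overlapping genes can give, the order of mean levels in WT began with Mt-co1 at 42313 ± 3311 CPM per kb, Mt-atp8 at 39267 ± 8909.5 and Mt-atp6 at 35796 ± 4181 (SD, n = 4). The ranges of these 3 neighbours overlapped, and all WT libraries had them above Mt-co3 at 24408 ± 3383 CPM per kb, whose range overlapped that of Mt-co2 at 20403 ± 4457. Next came Mt-cyb, Mt-nd1 and Mt-nd2 at 13068 ± 1206, 10482 ± 1056 and 9388 ± 1057 CPM per kb, each overlapping its neighbour, then Mt-nd4l at 5077 ± 1920.3 and Mt-nd3 at 3539 ± 666, which overlapped. Mt-nd5 at 2178 ± 339, Mt-nd4 at 841 ± 280.3 and Mt-nd6 at 171 ± 58.9 CPM per kb followed with no overlap between them. Mt-nd4l and Mt-nd4, which overlap on the genome and are carried by 1 mRNA in mammals, thus differed several-fold in level per kb, whereas Mt-atp8 and Mt-atp6, which also share an mRNA, did not separate beyond their spread. In HET the order of means was the same as in WT. In HOMO, Mt-atp6 at 9203 ± 429 and Mt-atp8 at 8952 ± 220.3 CPM per kb changed places, as did Mt-nd3 at 1176 ± 105 and Mt-nd4l at 1151 ± 94.6, and the ranges of both pairs overlapped. All these are levels of captured RNA, and differences in capture between genes were not tested.

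The rRNA rows did not follow the mRNAs. AY172581.9 (positions 68 to 1025) was at 341, 469, 468 and 450.3 CPM in WT, 551, 388, 352 and 665 CPM in HET and 379, 278, 576 and 556 CPM in HOMO. AY172581.24 (positions 1094 to 2664) was at 305, 634, 431 and 333 CPM in WT, 478, 418, 264 and 913 CPM in HET and 268, 193, 639.6 and 688 CPM in HOMO. For both, HOMO replicates 3 and 4 were high and HOMO replicates 1 and 2 low, and all groups overlapped. Their log2 fold changes in HOMO against WT were 0.050 ± 0.25 and 0.071 ± 0.47 (edgeR adjusted p = 0.867 and 0.902), and neither was called. With library size alone AY172581.9 was called at 0.66 (edgeR adjusted p = 0.0232) and AY172581.24 stood at 0.69, so no direction against WT is given for them.

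Set against the mRNAs of the same library, which needs no scaling, the rRNA rows were higher in HOMO. The log2 ratio of summed rRNA to summed protein-coding counts was -7.93, -7.53, -7.54 and -7.73 in WT, -7.43, -7.90, -7.89 and -7.09 in HET and -6.26, -6.54, -5.23 and -5.34 in HOMO. The HOMO libraries all lay above the others, by 1.84 against WT (3.58-fold; exact p = 0.0286, adjusted 0.0657), and the spread within HOMO (0.65, SD) exceeded that within WT (0.19). Without the library labelled HOMO replicate 3 the difference was 1.64. A second edgeR fit, added after the data were seen, took the summed protein-coding mitochondrial counts as the library size. On that scale AY172581.9 rose by 1.91 ± 0.21 and AY172581.24 by 1.96 ± 0.43 in HOMO against WT (edgeR adjusted p = 2.87e-08 and 0.00127), and both were called in each of the 12 fits that left out 1 library. In that fit 88.7% of all genes tested were called higher and 4.24% lower, so the rRNA rows shared their direction with most genes.

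Among the tRNA rows, 17 of the 19 tested fell in HOMO against WT, with log2 fold changes of -1.04 to -4.002 (edgeR, largest adjusted p among them = 0.00853), and for 15 of the 19 the groups did not overlap. Over all genes tested, 71.7% were called, 34.7% lower and 37.0% higher, and for 66.4% the groups did not overlap. One of the 17, AY172581.8, was not called with library size alone (-0.44). The other 3 of the 22 rows did not pass the filter, with at most 16 raw counts in a library. Only 4 tRNA rows reached a mean of 100 raw counts over all libraries. AY172581.15 (positions 3835 to 3903), the tRNA row with the most counts, was at 192, 301, 179 and 208 CPM in WT, 240.5, 259, 222 and 298 CPM in HET and 48.2, 38.6, 53.8 and 50.5 CPM in HOMO, and it fell, at -2.20 ± 0.17 on the log2 scale (edgeR adjusted p = 1.15e-07). AY172581.14 (positions 2665 to 2739) went from 58.5 ± 25.6 to 15.4 ± 5.71 CPM (-1.93 ± 0.33, edgeR adjusted p = 2.53e-04). AY172581.19, which shares 3 bases with Mt-co1, was at 17.0, 9.73, 12.9 and 5.35 CPM in WT, 9.87, 4.95, 1.35 and 2.51 CPM in HET and 0.970, 1.97, 1.88 and 1.59 CPM in HOMO, so that its HET libraries already overlapped with both groups. AY172581.1 also fell, at -1.89 ± 0.34 on the log2 scale (edgeR adjusted p = 2.58e-04).

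The uncalled rows lay side by side. Taken in genome order, the first 4 rows (AY172581.13, AY172581.9, AY172581.3 and AY172581.24, positions 1 to 2664), which are both rRNAs and 2 tRNAs, were not called in HOMO against WT, and all 30 tested rows from position 2665 on fell, beside 34.7% of all genes called lower. The 2 tRNA rows among the first 4 had log2 fold changes of -0.48 ± 0.45 and -0.48 ± 0.39 (edgeR adjusted p = 0.351 and 0.292) on 4 to 16 and 33 to 121 raw counts per library. With library size alone both were at 0.14. Relative to the summed mitochondrial mRNAs, both rose, by 1.40 ± 0.46 and 1.42 ± 0.35 (edgeR adjusted p = 0.00683 and 6.34e-04). On that scale 88.7% of all genes tested were called higher and 4.24% lower, so the 2 rows shared their direction with most genes. Of the 17 other tRNA rows, AY172581.21 (at most 76 raw counts in a library) and AY172581.15 fell further than the mRNAs and AY172581.8 less far on that scale (-2.11, -0.32 and 0.79). The calls of the last 2 depended on single libraries and held in 6 and 4 of 12 fits without 1 library. The grouping by position was noticed in the values and was not tested, and the tRNA rows other than the 4 with a mean of 100 counts were named after their values were seen.

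**Figure D3:**
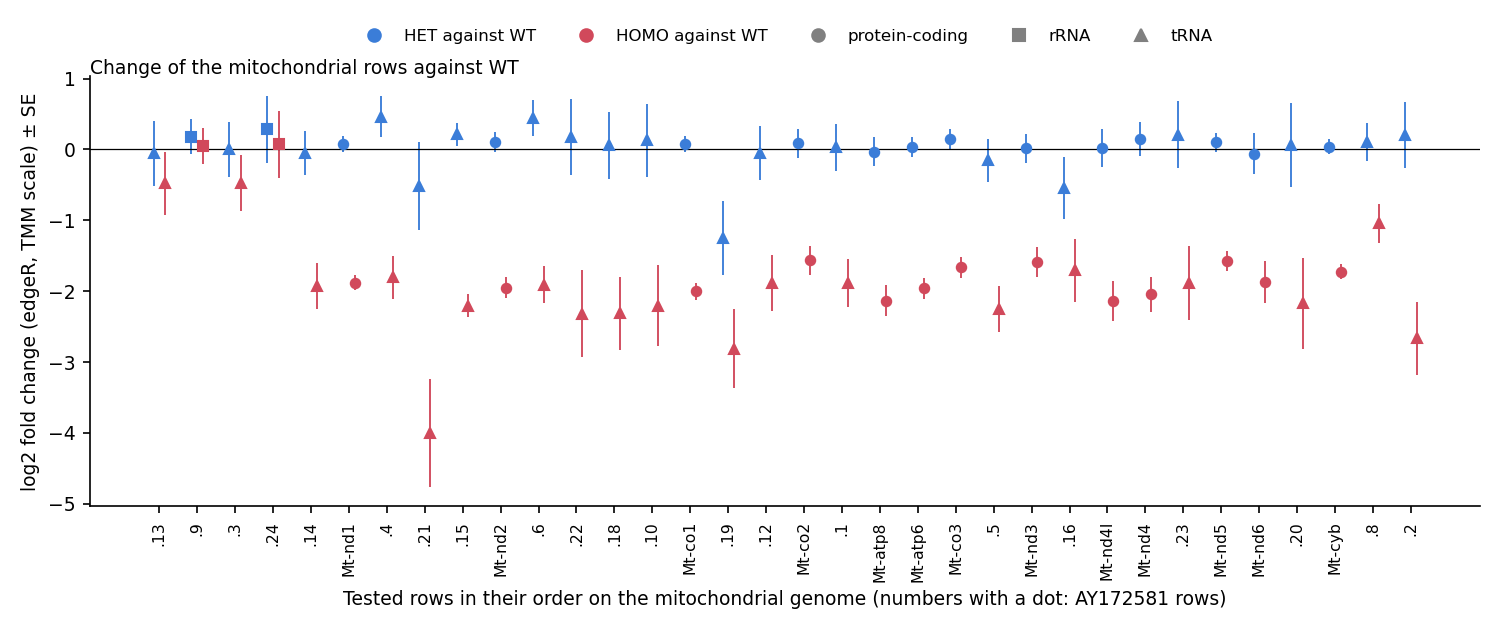
Log2 fold change against WT (edgeR, TMM scale; bars are standard errors) of the 34 tested mitochondrial rows in their order on the genome, for HOMO and HET. The first 4 rows lie in HOMO between -0.48 and 0.071, the 30 that follow lie between -4.002 and -1.04, and the HET values scatter around 0.

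The make-up of the mRNA pool also differed. As a share of the 13 genes' summed counts, Mt-co1 went from 37.8 ± 1.55% to 34.5 ± 0.351% and Mt-atp8 from 4.58 ± 0.481% to 3.87 ± 0.242% between WT and HOMO (SD, n = 4), both lower in HOMO with no overlap. The gap for Mt-atp8 was narrow, with 4.1507% in the highest HOMO library and 4.1517% in the lowest WT library. Higher shares in HOMO with no overlap were those of Mt-co2 (7.98 ± 0.807% to 9.92 ± 0.985%), Mt-co3 (11.01 ± 0.257% to 12.8 ± 0.359%), Mt-nd3 (0.706 ± 0.0462% to 0.864 ± 0.0480%), Mt-nd5 (2.29 ± 0.122% to 2.83 ± 0.0872%) and Mt-cyb (8.63 ± 0.328% to 9.54 ± 0.237%). Thus the groups did not overlap for 7 of the 13 genes, which is 53.8% of them (exact p = 0.0286 each, adjusted 0.0657), and 0 passed the adjustment. The number with an exact p under 0.05 was 3 without HOMO replicate 2, 4 without HOMO replicate 3 and 3 without HOMO replicate 4, where groups that stay apart can have an exact p of 0.0571. Mt-nd1, Mt-nd2, Mt-nd4l, Mt-nd4, Mt-nd6 and Mt-atp6 overlapped between WT and HOMO. Shares of 1 sum are not independent, since a lower share of the most abundant gene raises the others. In the fit relative to the summed mitochondrial mRNAs, 88.7% of all genes tested were called higher and 4.24% lower in HOMO against WT. Of the 13 genes, 2 were called, Mt-co2 at 0.31 ± 0.15 and Mt-nd5 at 0.30 ± 0.13 (edgeR adjusted p = 0.0473 and 0.0303). Their calls held in 4 and 8 of the 12 fits without 1 library.

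**Figure D4:**
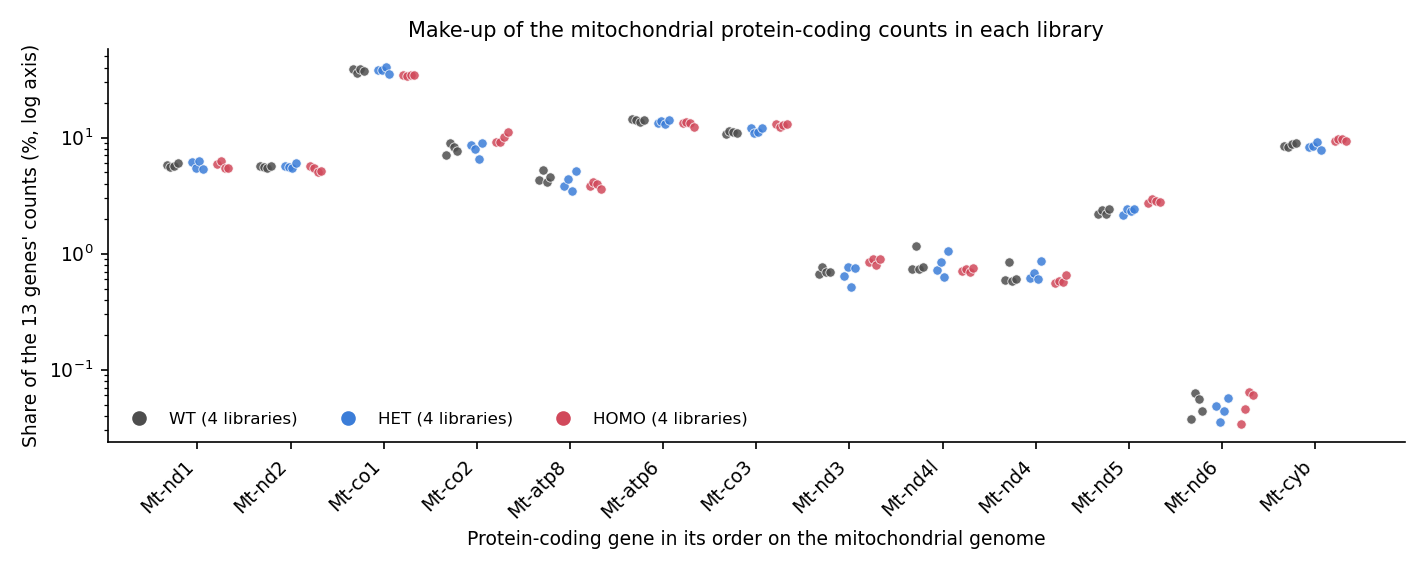
Share of each gene in the summed counts of the 13 mitochondrial protein-coding genes (%, log axis) in each of the 12 libraries. Points are libraries; Mt-co1 was 34.0 to 34.7% in HOMO and 35.8 to 39.3% in WT, and Mt-nd5 was 2.74 to 2.94% and 2.18 to 2.41%.

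The nuclear genes for the partner subunits of the same complexes fell as well, at smaller medians. In HOMO against WT, 36 of 36 tested nuclear genes of complex I fell at a median log2 fold change of -1.37, 9 of 9 of complex III at -1.47, 10 of 11 of complex IV at -1.28 and 14 of 14 of complex V at -1.48. All 4 genes of complex II, which has no mitochondrial subunit, fell at a median of -1.74. These counts stand beside 34.7% of all genes called lower and 37.0% higher. With library size alone 35, 4, 9, 10 and 13 genes of complexes I to V fell, beside 81.1% of all genes called. The member of complex IV that was not called was Cox7a2l (0.11 ± 0.071), which was named after its value was seen and stood at 0.72, called higher, with library size alone. Examples with the smallest p were Ndufa10 and Ndufs3 of complex I at -1.60 ± 0.073 and -1.60 ± 0.074, Sdhc and Sdhb of complex II at -1.78 ± 0.071 and -1.56 ± 0.071, Uqcrfs1 and Uqcrc2 of complex III at -1.65 ± 0.078 and -1.69 ± 0.082, Cox6a1 and Ndufa4 of complex IV at -1.26 ± 0.069 and -1.71 ± 0.097, and Atp5f1a and Atp5mc1 of complex V at -1.88 ± 0.084 and -1.67 ± 0.082 (edgeR, largest adjusted p = 7.01e-09).

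The ratio of mitochondrially to nuclear-encoded transcripts was lower in HOMO. Summed over complexes I, III, IV and V, the 13 mitochondrial genes stood at 173526 ± 20406 CPM in WT and 47359.7 ± 3133 CPM in HOMO. The 71 nuclear genes stood at 27922 ± 1161 and 10067 ± 485 CPM. The log2 ratio of the sums within a library was 2.58, 2.87, 2.52 and 2.54 in WT, 2.55, 2.73, 2.40 and 2.99 in HET and 2.21, 2.19, 2.21 and 2.32 in HOMO. The HOMO libraries were all below the others, and their mean ratio was 0.760 times that of WT. By complex, the log2 difference between HOMO and WT was -0.48 for I, -0.27 for III, -0.62 for IV and -0.35 for V, with no overlap in any of them (exact p = 0.0286 each, adjusted 0.0657). Without the library labelled HOMO replicate 3 these were -0.47, -0.29, -0.63 and -0.33, and the exact p of complex V was then 0.0571, with the groups still apart. Against HET the groups did not overlap for complexes I, III and IV (-0.52, -0.31 and -0.64) and overlapped for complex V (-0.34, exact p = 0.114).

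**Figure D5:**
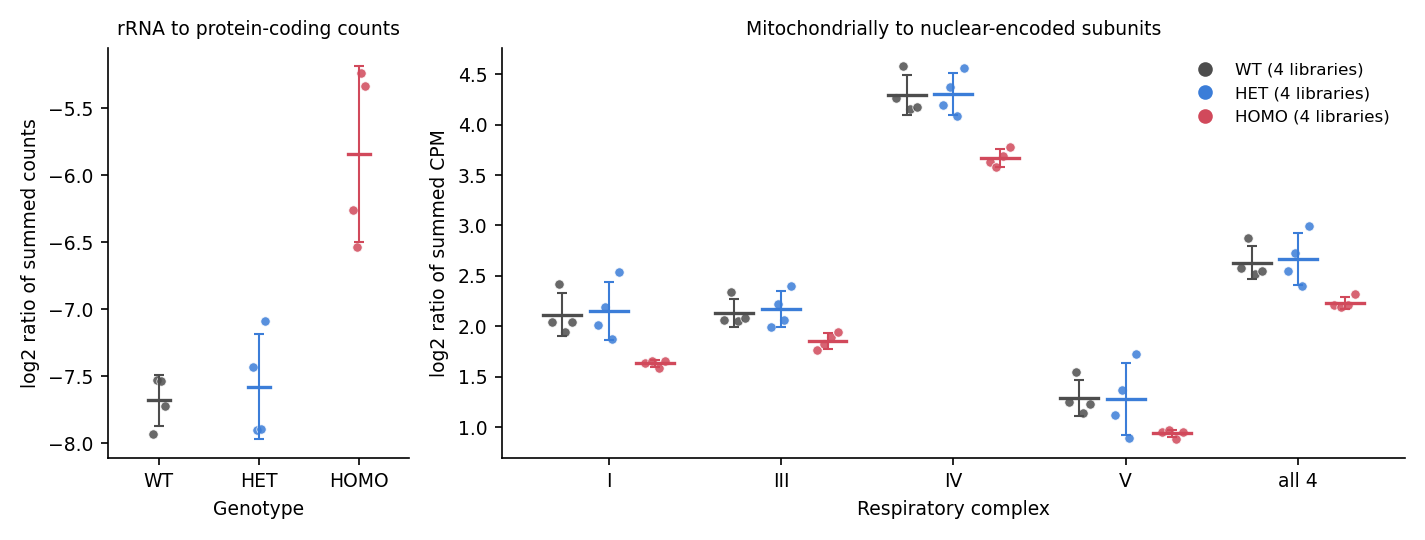
Left, log2 ratio of summed counts on the 2 rRNA rows to those on the 13 protein-coding rows of the mitochondrial genome; right, log2 ratio of summed CPM of mitochondrially to nuclear-encoded subunits, by complex. Points are libraries, lines are means and bars are SDs (n = 4); HOMO lies at -6.54 to -5.23 on the left, above WT at -7.93 to -7.53, and below WT in each complex on the right.

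Nuclear genes that copy, transcribe and process the mitochondrial genome mostly fell on the TMM scale, and their direction depended on the scaling. Of 21 tested genes of mitochondrial DNA upkeep and transcription, 15 fell, 2 rose and 4 were not called, at a median of -0.54, beside 71.7% of all genes called and 34.7% called lower. With library size alone 7 fell and 8 rose, beside 81.1% of all genes called, and the median was 0.076. The share of these genes called is close to that of all genes, so the count is a description. Tfb2m and Tefm, which help the mitochondrial RNA polymerase to start and to elongate, fell (log2 fold changes -1.66 ± 0.10 and -1.23 ± 0.092), from 45.7 ± 1.96 to 14.5 ± 1.77 and from 23.1 ± 1.42 to 9.83 ± 0.848 CPM. Primpol, a primase that restarts stalled replication, rose by 1.30 ± 0.22 (edgeR, largest adjusted p of the 3 = 1.33e-04). The polymerase itself, Polrmt, fell, at -0.83 ± 0.071 (adjusted p = 2.98e-07, edgeR) and at -0.21 with library size alone (adjusted p = 0.0282). Tfam, which packs mitochondrial DNA and opens its promoters, was at -0.25 ± 0.084 (edgeR adjusted p = 0.0154), but at 0.36 and called higher with library size alone (edgeR adjusted p = 0.00296). Polrmt and Tfam were named after their values were seen.

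Of 25 genes of mitochondrial RNA processing and stability, 20 fell and 1 rose at a median of -0.70, against 9 and 5 with library size alone at a median of -0.084. Of all genes tested, 71.7% were called on the TMM scale, 34.7% lower, and 81.1% with library size alone. Lrpprc, which stabilises mitochondrial mRNAs and promotes their polyadenylation, fell from 219 ± 13.7 to 94.8 ± 2.93 CPM (-1.21 ± 0.066). Hsd17b10, a subunit of the mitochondrial RNase P that frees the tRNAs, fell from 267 ± 28.3 to 88.9 ± 3.61 CPM (-1.59 ± 0.099), while the exonuclease Rexo2 rose by 0.29 ± 0.099 (edgeR, largest adjusted p of the 3 = 0.0178). Rexo2 was not called without HOMO replicate 2 (edgeR adjusted p = 0.0572), at a level of 0.01 or when tested against a fold of 1.5. All 12 translation factors tested fell (median -0.88), among them the elongation factors Gfm1 at -1.66 ± 0.087 and Tufm at -1.19 ± 0.068, and 7 fell with library size alone.

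Among 12 regulators of mitochondrial biogenesis, 9 fell and 2 rose at a median of -1.03 (with library size alone 7 and 5, median -0.41). Of all genes tested, 34.7% were called lower and 37.0% higher on the TMM scale. The orphan nuclear receptors Esrrg and Esrra fell, at -1.61 ± 0.084 and -1.20 ± 0.077, their coactivator Ppargc1a, named after its value was seen, fell at -0.998 ± 0.11, and the related coactivator Pprc1 rose by 0.77 ± 0.12 (edgeR, largest adjusted p of the 4 = 5.73e-05). Other mitochondrial proteins of the membranes and matrix fell in 17 of 17 cases (median -1.08; 10 with library size alone), with the outer membrane channel Vdac1 at -1.88 ± 0.079 and the cristae protein Immt at -1.54 ± 0.073. Of 10 mitophagy genes, 7 fell and 3 were not called (median -0.31), but with library size alone 2 fell and 7 rose. The share called is near that of all genes, 71.7% and 81.1% under the 2 scalings, and is not a result about these genes. Bnip3, a mitophagy receptor, fell, at -1.64 ± 0.13 (edgeR adjusted p = 1.26e-07). Phb2, an inner membrane mitophagy receptor, was at -0.70 ± 0.073 and was not called with library size alone.

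Markers of cell types moved with the same groups, and their part in the fall of the mitochondrial transcripts was not tested. All 15 members of the proximal tubule list were detected in WT, and whether the tissue was cortex alone was not tested. The summed level of these markers was 23227 to 28274 CPM over the WT libraries, 25424 to 27332 CPM in HET and 2690.4 to 3059 CPM in HOMO, and all 15 fell in HOMO against WT (median -3.01). Slc34a1, the phosphate transporter of that segment, and the gluconeogenic enzyme Fbp1 fell, at log2 fold changes of -4.26 ± 0.11 and -3.93 ± 0.12 (edgeR, largest adjusted p = 7.56e-11). Markers of the thick ascending limb and distal tubule summed to 3817 to 7295 CPM in WT and 1209.9 to 1978 CPM in HOMO (7 of 8 tested fell), and those of the collecting duct to 918 to 1055 and 296 to 700.0 CPM (7 of 8). With library size alone 4 and 3 genes of these lists fell, beside 81.1% of all genes called, 80% of them higher. In the other direction, macrophage markers summed to 246 to 381 CPM in WT and 2034 to 2975 CPM in HOMO (10 of 10 rose), fibroblast markers to 569 to 848 and 3496 to 6864 CPM (8 of 8) and lymphocyte markers to 24.0 to 45.5 and 149 to 199.9 CPM (9 of 9). These counts stand beside 71.7% of all genes called on the TMM scale, 34.7% lower and 37.0% higher.

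Red blood cell markers varied within groups, from 185 to 1298 CPM in WT and 31.6 to 431 CPM in HOMO (2 of 5 fell, one of them Slc4a1, which intercalated cells of the collecting duct also express). The other gene called, Epb42, was not called with library size alone (edgeR adjusted p = 0.0607). Skeletal and heart muscle markers, from a tissue also rich in mitochondria, summed to 0.302 to 0.920 CPM in WT, 0.712 to 2.99 CPM in HET and 2.32 to 4.99 CPM in HOMO, and 3 of 3 tested rose in HOMO against WT (median 2.48). Only those 3 of 7 matched members passed the filter, and levels were near the floor. Tnni2 went from 0.109 to 0.616 CPM and Acta1 from 0.143 to 1.07 CPM. Of all genes tested, 34.7% were called lower and 37.0% higher. Members at 0 in all libraries of a group were Cd79al in all 3 groups and Pvalb in HET. The summed ranges of WT and HET overlapped for each of the 8 marker lists.

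HET did not differ detectably from WT. In edgeR, 0 of the 34 tested mitochondrial rows and 0% of the 15856 genes were called, DESeq2 and limma voom also called 0 mitochondrial rows, and 1 row (AY172581.19, log2 fold change -1.24 ± 0.52) and 318 genes had an unadjusted p under 0.05. The groups overlapped for each of the 34 rows, and failed to overlap for 1.62% of all genes. The log2 fold changes of the 13 protein-coding genes lay between -0.058 (Mt-nd6) and 0.15 (Mt-co3), with standard errors of 0.11 to 0.28. Mt-co1 was at 65374 ± 5115 CPM in WT and 68954 ± 7437 CPM in HET, and Mt-cyb at 14937 ± 1379 and 15378 ± 1566 CPM (SD, n = 4). The HET group spread more widely than WT in the total mitochondrial share, between 12.9% in replicate 4 and 18.6% in replicate 5. The share, the make-up, the rRNA ratio and the ratios to nuclear subunits overlapped between HET and WT, with exact p of 0.143 or more.

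HOMO against HET, which uses the same HOMO libraries as the comparison with WT, gave the following values. All 13 protein-coding genes fell, from -1.60 (Mt-nd3) to -2.19 (Mt-nd4) with a median of -1.96 (edgeR, largest adjusted p = 1.68e-04), beside 70.6% of all genes called, 34.5% lower and 36.2% higher. HET and HOMO libraries did not overlap for the 13 genes, as for 64.4% of all genes. Mt-co1 was at -2.08 ± 0.12 (adjusted p = 8.30e-09), Mt-co2 at -1.66 ± 0.21 (adjusted p = 1.08e-05) and Mt-cyb at -1.77 ± 0.11 (adjusted p = 1.30e-08, all edgeR). Of 19 tRNA rows 17 fell, but with library size alone 14 did, since AY172581.19, AY172581.16 and AY172581.8 were then not called (edgeR adjusted p = 0.131, 0.282 and 0.105). AY172581.19 was also not called with limma voom, against a fold of 1.5 or without HET replicate 1 or HOMO replicate 1, nor AY172581.16 with a fold of 1.5, with a replicate block or without any 1 of HET replicates 2 and 5 and HOMO replicates 1, 3 and 4. Neither rRNA row was called (-0.13 and -0.21, against 0.50 and 0.41 with library size alone). The make-up did not overlap for 6 of the 13 genes (46.2%), Mt-co1 being lower in HOMO and Mt-co2, Mt-co3, Mt-nd3, Mt-nd5 and Mt-cyb higher, and 0 passed the adjustment. The number with an exact p under 0.05 was 2 without HOMO replicate 1, 2 or 3, 1 without HOMO replicate 4 and 3 without HET replicate 4. Relative to the summed mitochondrial mRNAs, AY172581.9 and AY172581.24 were at 1.82 ± 0.21 and 1.78 ± 0.43, beside 88.9% of genes called higher and 4.06% lower, and Mt-nd3 and Mt-nd5 were the 2 called mRNAs (0.37 and 0.28, called in 11 and 3 of 12 fits without 1 library).

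Leaving out the library labelled HOMO replicate 3 changed no call among the 13. Their log2 fold changes in HOMO against WT were then -1.54 to -2.13 (edgeR, largest adjusted p = 4.14e-04), and Mt-co1 was at -1.99. Both rRNA rows were again not called, at -0.10 and -0.16, which is the opposite sign to the values with all libraries. The tRNA row AY172581.7 passed the filter in that fit and was called lower (-2.82, edgeR adjusted p = 0.0234). Against HET the 13 genes were at -1.56 to -2.16, all called, and 17 of 20 tRNA rows fell, beside 69.7% of all genes called. Of the 19 gene lists, 16 had the same numbers lower and higher in HOMO against WT as with all libraries. The others were mitophagy with 6 lower, the thick ascending limb and distal tubule with 6 and the collecting duct with 8. The medians of the nuclear subunits were -1.33, -1.72, -1.41, -1.24 and -1.41 for complexes I to V. Summed HOMO markers of the proximal tubule were then 2690.4 to 3059 CPM, of the collecting duct 296 to 420.5 CPM, of macrophages 2034 to 2975 CPM and of fibroblasts 5118 to 6864 CPM.

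The authors' deposited table for HOMO against WT holds the 13 protein-coding rows of chromosome M and calls all 13 lower, with log2 fold changes of -1.56 (Mt-co2) to -2.14 (Mt-nd4l). Of its 13851 genes, 67.3% are called. The authors' deposited table for HOMO against HET also calls 13 of 13 lower, beside 65.2% of its 13845 genes called. The authors' deposited table for HET against WT calls 0 of 13, and 1 of its 12759 genes.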

How the data were processed

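The authors' deposited table gave raw read counts per gene for 12 libraries, 4 per genotype as in the sample titles. Rnor_6.0 and edgeR 3.8.6 appear in the submitters' processing notes, with no role stated, and positions are those listed in the deposited table. The sources used here do not give the aligner, counter, annotation or use of strand. The RPKM values deposited by the authors were recomputed from count, listed length and total with a median deviation of 0.0416% among values of at least 50 counts and not used further. The authors' comparison tables, with log2 fold changes and p-values, were only quoted as deposited.

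The filter on low counts (edgeR's filterByExpr at 10 counts and a total of 15) passed 15856 of 22687 genes with a count. edgeR 4.0.16 (R 4.3.3) fitted 1 quasi-likelihood model with TMM factors to all 12 libraries, and p-values were adjusted by Benjamini-Hochberg over all genes tested at a level of 0.05. The words rose, fell and called stand for an adjusted p under it. Expression is given as TMM-scaled CPM, mean ± SD, and log2 fold changes carry a standard error. Shares, ratios and make-up were compared by exact two-sided permutation over 70 arrangements, with 69 tests adjusted together. DESeq2 1.42.0, limma 3.58.1 voom, other scalings, filters and levels, and leaving out each library were tried as alternatives, and the fit relative to mitochondrial mRNAs was added after the data were seen. The edgeR fit was checked on simulated counts, and the permutation test on small made-up sets of numbers. The simulation changed only a small part of the genes, equally up and down. It therefore does not cover a comparison in which most genes change, as with HOMO.

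Members are all rows listed on chromosome M, and they and the 19 gene lists (256 entries, 245 matched) were chosen with earlier results of these data known. The rule named all 13 protein-coding genes, both rRNA rows, tRNA rows with a mean of 100 or more counts, and, per list, the 2 members with the smallest p and 1 against the median. Other nuclear genes named are marked in the text, and other tRNA rows were named after their values were seen. Mitochondrial sequences are not printed here.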

Additional observations from a re-analysis of the deposited data

Results flagged for a closer look

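Of 126 groups of 4 libraries checked, 13 held a library whose gap to its nearest neighbour exceeded Dixon's 95% critical value for the group's range; chance gives about 1 in 20. In 10 of them it was WT replicate 2, the highest WT library. Its level was 11385 CPM for Mt-nd2, 28608 CPM for Mt-atp6, 2361 CPM for Mt-nd4l and 1737 CPM for Mt-nd4. Its share of counts was 17.0% for all mitochondrial rows, 16.9% for the protein-coding rows and 0.0381% for the tRNA rows. Within the mRNA pool Mt-nd4l held 1.16% and Mt-nd4 0.853% in it. Its log2 ratio of mitochondrially to nuclear-encoded subunits of complex III was 2.34. These values are not independent, since they come from 1 library. Without it, all 13 protein-coding genes still fell in HOMO against WT, at -1.42 to -1.97 (edgeR, largest adjusted p = 2.83e-04).

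The other 3 were WT replicate 1, the lowest of its group for the rRNA row AY172581.9 at 341 CPM, HOMO replicate 2, in which Mt-co1 held 34.0% of the mRNA pool, and HOMO replicate 4, whose log2 ratio of mitochondrially to nuclear-encoded subunits over 4 complexes was 2.32.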

How the results depend on the processing

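The fall of the 13 protein-coding genes in HOMO kept its direction and its call against WT and against HET under every scaling, filter, tool, threshold and left-out library run, with log2 fold changes against WT between -2.24 and -0.95. The rRNA rows are limited by spread within HOMO, AY172581.13 by counts of at most 16, and shares and ratios by 4 libraries a group, where none of the 69 exact tests passed the adjustment. Leaving out 1 library also leaves fewer arrangements for the exact tests.

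With library size alone the signs turned for AY172581.13 (0.14 against WT, 0.20 against HET), AY172581.3 (0.14 and 0.15) and, against HET, AY172581.9 (0.50) and AY172581.24 (0.41). With limma voom they turned for AY172581.24 in HOMO against WT (-0.072) and Mt-nd3 in HET against WT (-0.025). The rRNA share in HOMO against HET was -0.0113 percentage points with the effective library size. With counts per listed length, Mt-nd1 in the make-up differed by 0.0172 percentage points in HOMO against WT, the exact p of Mt-co1 was 0.114, and 3 genes had an exact p under 0.05 in HOMO against HET. The fit relative to mitochondrial mRNAs called 2 of the 13 genes in either comparison with HOMO, beside 88.7% (WT) and 88.9% (HET) of all genes called higher. With mean log2 CPM in place of summed CPM, the complex V ratio in HOMO against HET was -0.57 with an exact p of 0.0286. The causes of these changes were not tested.

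Pairing by replicate number was not evident across the pairs: deviations from the group means correlated between same-numbered libraries at -0.133 to 0.0223 (HOMO and WT), -0.0276 to 0.185 (HET and WT) and -0.0959 to 0.440 (HOMO and HET). The value of 0.440 was that of HET and HOMO replicate 1, and the differently numbered WT replicate 3 and HET replicate 4 reached 0.441. Few pairs were available, so pairing of single libraries cannot be told. With the replicate number as a block, 30 mitochondrial rows were called in HOMO against WT (71.0% of all genes), 29 in HOMO against HET (68.1% of all genes) and 0 in HET against WT. The block turned AY172581.24 in HOMO against HET to 0.020 and, in HET against WT, gave -0.0054 for Mt-nd1, -0.058 for Mt-nd2, -0.070 for Mt-co2, -0.10 for Mt-atp6, -0.20 for Mt-nd3, -0.27 for Mt-nd4l, -0.12 for Mt-nd4, -0.035 for Mt-nd5 and -0.015 for Mt-cyb, none of them called.

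Leaving out each library in turn, uncalled values near 0 crossed it. In HET against WT the log2 fold change ranged over -0.016 to 0.21 for Mt-nd2, -0.063 to 0.25 for Mt-co2, -0.24 to 0.14 for Mt-atp8, -0.074 to 0.14 for Mt-atp6, -0.13 to 0.19 for Mt-nd3, -0.23 to 0.32 for Mt-nd4l, -0.086 to 0.41 for Mt-nd4, -0.0087 to 0.21 for Mt-nd5, -0.28 to 0.18 for Mt-nd6 and -0.0074 to 0.10 for Mt-cyb, and over -0.0049 to 0.31 and -0.14 to 0.54 for AY172581.9 and AY172581.24. Those 2 rows ranged over -0.10 to 0.22 and -0.21 to 0.32 in HOMO against WT and over -0.28 to 0.048 and -0.50 to 0.20 in HOMO against HET. Differences in make-up in HET against WT ranged, in percentage points, over -0.636 to 1.15 for Mt-co1, -0.286 to 0.524 for Mt-co2, -0.395 to 0.0496 for Mt-cyb, -0.0839 to 0.191 for Mt-nd1, -0.0221 to 0.160 for Mt-nd2, -0.0704 to 0.0132 for Mt-nd3, -0.0249 to 0.0972 for Mt-nd4, -0.114 to 0.0681 for Mt-nd4l and -0.00830 to 0.000397 for Mt-nd6. For HOMO they ranged over -0.175 to 0.0907 (Mt-nd1), -0.0886 to 0.00195 (Mt-nd4) and -0.00337 to 0.00669 (Mt-nd6) against WT and -0.224 to 0.0630 (Mt-nd1) against HET. The HET minus WT share ranged over -0.267 to 1.65 for all rows, -0.263 to 1.62 for protein-coding rows and -0.00385 to 0.0234 for rRNA rows, and the rRNA ratio over -0.059 to 0.21. The log2 ratio to nuclear subunits ranged, in HET against WT, over -0.088 to 0.14 (I), -0.039 to 0.10 (III), -0.074 to 0.11 (IV), -0.16 to 0.11 (V) and -0.072 to 0.12 (all 4 together); in HOMO against HET over -0.62 to -0.39 (I), -0.37 to -0.24 (III), -0.47 to -0.19 (V) and -0.52 to -0.32 (all 4 together); and for complex V in HOMO against WT over -0.40 to -0.27. Genes of the make-up with an exact p under 0.05 numbered 3 to 7 against WT and 1 to 6 against HET.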
